A study of Mus musculus with 8 samples.

Results

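The array carries 967 probes that its design names by a stretch of chromosome 5 and a strand instead of by a transcript. They were taken as every probe other than a control whose systematic name begins with chr5 and a colon, whatever its signal, and they are 967 of 55681 probes in all. They lie in 276 combinations of region and strand, 145 forward with 499 probes and the others reverse with 468, on coordinates of build mm9. These reduce to 210 regions, of which 66 have probes on both strands and 144 on 1 strand. A region and strand holds 1 to 10 probes, with a median of 3. The regions are 62 to 538251 bases long, with a median of 14026, and run from chr5:4570525 to chr5:152030218. Some overlap, and regions that overlap on the same strand form 196 separate stretches, so probes of neighbouring names can read the same RNA and are not replicates.

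RNA was taken from frozen red gastrocnemius, a muscle of the calf, in 8 mice aged 14 to 16 weeks. There were 4 animals of each genotype, wild type for Pus1 or homozygous for a mutant Pus1, all on C57BL/6J after 5 generations of backcrossing, and the labels give no agent and do not say which part of Pus1 is altered. Each of 4 arrays held 1 wild type and 1 mutant of the same sex, male on arrays 1 and 2 and female on arrays 3 and 4, with the mutant in Cy5 on arrays 1 and 3 and in Cy3 on arrays 2 and 4. The labels call the samples biological replicates. Values per animal and per array are listed in the order of their numbers, 1 to 4.

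Pus1 encodes a pseudouridine synthase, which turns uridine into pseudouridine in cytosolic and mitochondrial tRNA. Probes named by a region read RNA from stretches between annotated genes, where many long noncoding RNAs were first recognised by chromatin marks of transcription. Such RNAs are often low in level and restricted to some tissues, and a few regulate genes close to them, while for most no role is known. Backcrossing leaves DNA of the donor strain around a selected allele, so a mutant and a wild type can differ in sequence near it. That is background for comparing regions that start in the 40 Mb from 91 Mb on, called the window around Pus1, with the rest of the chromosome. Whether a region overlaps a gene in a current annotation was not tested here.

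The labels were checked against Pus1 itself. Log2 levels of its 1 probe were 8.69, 8.42, 8.72 and 9.13 in the wild types against 6.74, 6.88, 6.60 and 7.12 in the mutants. The genotypes did not overlap, and 4 of 4 wild types but 0 of 4 mutants had a signal well above background, which puts the mutants at least 3.57-fold lower. Its log2 ratio was -1.90 ± 0.10 (SE, n = 4 arrays), which did not pass over all probes (limma adjusted p = 0.117). Each of the 8 samples had all 12 skeletal muscle markers and all 5 slow-fibre markers well above background. Of the other markers, those of erythroid cells (3 of 3), endothelium (2 of 2) and fibroblasts (2 of 2) were above background in all 8 samples too, so the tissue holds other cells, and in whole tissue fewer cells of a type and less RNA per cell cannot be told apart.

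Most region probes gave no clear signal in this muscle. Well above background in all 8 samples were 172 of the 967 (17.8%), in 1 to 7 samples 249, and in no sample 546 (56.5%). Over the region probes of other chromosomes 15.6% were above background in all 8 samples, and over the probes for genes and transcripts 43.7%. By strand, 96 forward and 96 reverse members passed the filter for testing, which asked that every sample of 1 genotype or of both be well above background. Those 192 probes (19.9% of members) passed through both genotypes for 172, through the wild types alone for 15 and through the mutants alone for 5. The other 775 were not tested. None was above background in all 4 samples of 1 genotype and none of the other, and none was saturated in any sample.

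The number of members above background overlapped between the genotypes. It was 287, 359, 217 and 260 in the wild types against 245, 231, 269 and 208 in the mutants. The male wild types 1 and 2 were the highest of the 8, while wild types 3 and 4 lay among the mutants. In the window the share ran from 18.6% in mutant 4 to 31.1% in wild type 2 of 440 members, and on the rest of the chromosome from 23.9% in mutant 4 to 42.1% in wild type 2 of 527. The same pair of male wild types led among all probes, with 45.0% and 47.3% above background against 39.7% to 42.5% in the other 6 samples.

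**Figure D1:**
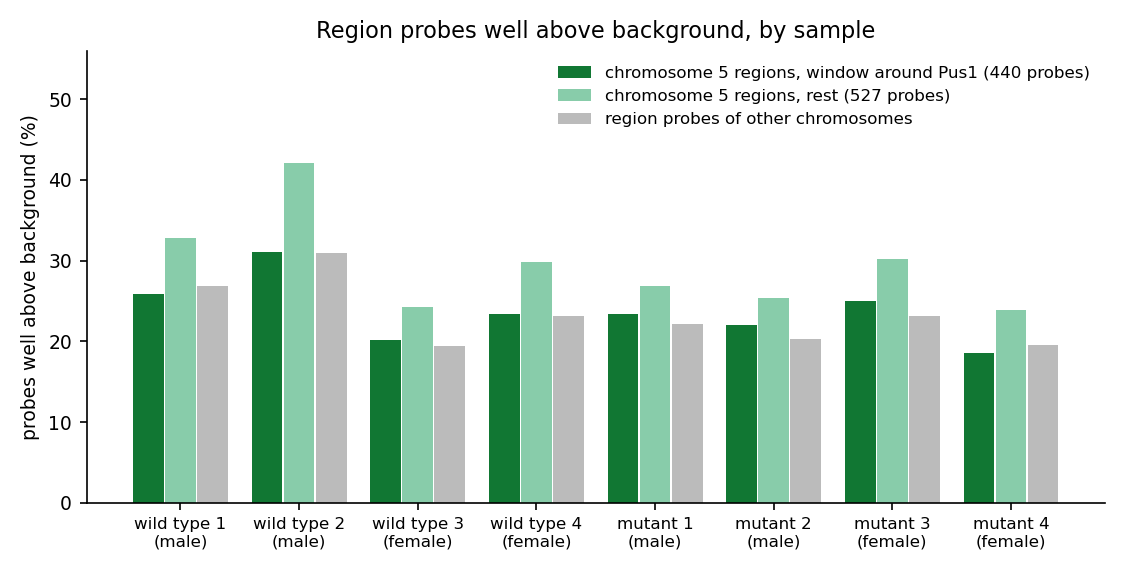
Share of region probes well above background in each of the 8 samples (bars, percent), for the window around Pus1, the rest of chromosome 5 and the other chromosomes. The rest of the chromosome lies above the window in every sample, and wild type 2 has the highest share in each class, 31.1%, 42.1% and 30.9%.

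No region probe of chromosome 5 was called for genotype in a test that did not call Pus1 either. Over all 21146 tested probes limma called 0 at an adjusted p under 0.05 (0%), so 0 of 192 members passed, with adjusted p from 0.643 upward. At an unadjusted p under 0.05 there were 22 members, 14 of them higher and 8 lower in mutants, or 11.5% of those tested against 5.46% of all probes and 7.45% of region probes on other chromosomes. For all probes the shares were 2.89% higher and 2.57% lower. These 22 probes lie in 14 combinations of region and strand and 12 separate stretches, so they are fewer than 22 independent transcripts. Of the 22, 7 belong to 1 cluster of overlapping forward regions described below, so the share of 11.5% rests in part on that cluster. A single direction on 4 of 4 arrays was found for 18 members, or 9.38%, against 10.2% of all probes. The levels of wild types and mutants failed to overlap for 1 member, with mutants higher, or 0.521%, against 1.30% of all probes (0.728% with mutants higher and 0.572% with mutants lower). Without the dye term 14 of the 22 kept an unadjusted p under 0.05.

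Tested members had log2 ratios from -1.45 to 0.91, with 86 higher and 106 lower in mutants and a median of -0.017, against 0.0031 over all probes. The region probes of other chromosomes leaned the same way, with 1236 higher and 1503 lower and a median of -0.015. The median absolute log2 ratio of the members was 0.10, against 0.077 over all probes and 0.091 over the region probes of other chromosomes. Beside this stands their lower brightness, a median log2 level of 7.99 against 9.22 over all probes and 8.07 over the other region probes, whose part was not tested. The median SE was 0.092 against 0.084 over all probes. By array, the median ratio of the members was 0.060, -0.13, 0.094 and -0.074 on arrays 1 to 4. It was positive where the mutant carried Cy5 and negative where it carried Cy3, a dye pattern that the region probes of other chromosomes shared at 0.022, -0.075, 0.063 and -0.073.

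The window around Pus1 holds 440 members in 129 combinations of region and strand, and 77 of them (17.5%) were tested, against 115 of 527 (21.8%) on the rest of the chromosome. An unadjusted p under 0.05 was reached by 11 of 77 window probes (14.3%), 4 higher and 7 lower, and by 11 of 115 elsewhere on chromosome 5 (9.57%), 10 higher and 1 lower. With replicate 2 left out, 0 window probes and 17 others on chromosome 5 reached it. Of the 11 outside the window, 7 belong to 1 cluster of overlapping regions described below, and without it 4 of 108 remain (3.70%). Median absolute log2 ratios over the 4 arrays together were 0.11 in the window and 0.099 outside it, or 0.094 without that cluster. In the central 20 Mb of the window, 9 of 37 tested probes had an unadjusted p under 0.05 (24.3%) and the median absolute ratio was 0.18, against 0.091 for the rest of the chromosome. Those 9 probes lie in 7 separate stretches, 4 have 1 direction on 4 of 4 arrays, and 4 keep an unadjusted p under 0.05 without the dye term.

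Array by array the order was the other way. The median absolute log2 ratio was 0.11, 0.24, 0.17 and 0.11 in the window on arrays 1 to 4, and 0.20, 0.26, 0.20 and 0.19 on the rest of the chromosome. The difference of window minus rest was -0.087, -0.022, -0.038 and -0.077, negative on 4 of 4 arrays, with a mean of -0.056 ± 0.031 (SD, n = 4 arrays; exact permutation test by sign change, 2-sided, p = 0.125, the smallest that 4 arrays allow). Without that cluster the rest of the chromosome had 0.21, 0.21, 0.19 and 0.18, so array 2 had the window higher and the mean difference was -0.040 (exact permutation test, p = 0.375). It was 0.00097 with the window narrowed to its central 20 Mb and 0.028 with median centring of each array. A larger ratio in the window was thus not shown by this measure, which does not take out the dye pattern. On arrays 1 to 4 the median ratio was 0.032, -0.12, 0.090 and -0.079 in the window. It was 0.10, -0.13, 0.13 and -0.063 on the rest of the chromosome. The part of the dye in the order was not tested. Across tested probes, male and female mean ratios had Pearson r = 0.25 and Spearman rho = 0.20 in the window (77 probes) and r = 0.38 and rho = 0.14 outside it (115 probes), or r = 0.054 without the cluster, and these probes share samples and arrays.

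At each border 1 tested probe on either side is named, from a region with 1 or more tested probes. Just below 91 Mb, A_30_P01025590 (chr5:88995039-89009064, reverse) had a ratio of 0.041 ± 0.078 (SE). The tested reverse probes of that region ran from -0.23 to 0.041. Just above 91 Mb, A_30_P01026663 (chr5:92548501-92566401, forward) had -0.020 ± 0.073. The last tested probe within the window, A_30_P01018681 (chr5:125861675-125880125, forward), had -0.12 ± 0.098. The next tested region outside was chr5:137392195-137426421, whose forward strand belongs to that cluster. Its tested forward probes ran from 0.34 to 0.80 (0.80 ± 0.11 for A_30_P01023875) and its tested reverse probes from -0.17 to -0.075.

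**Figure D2:**
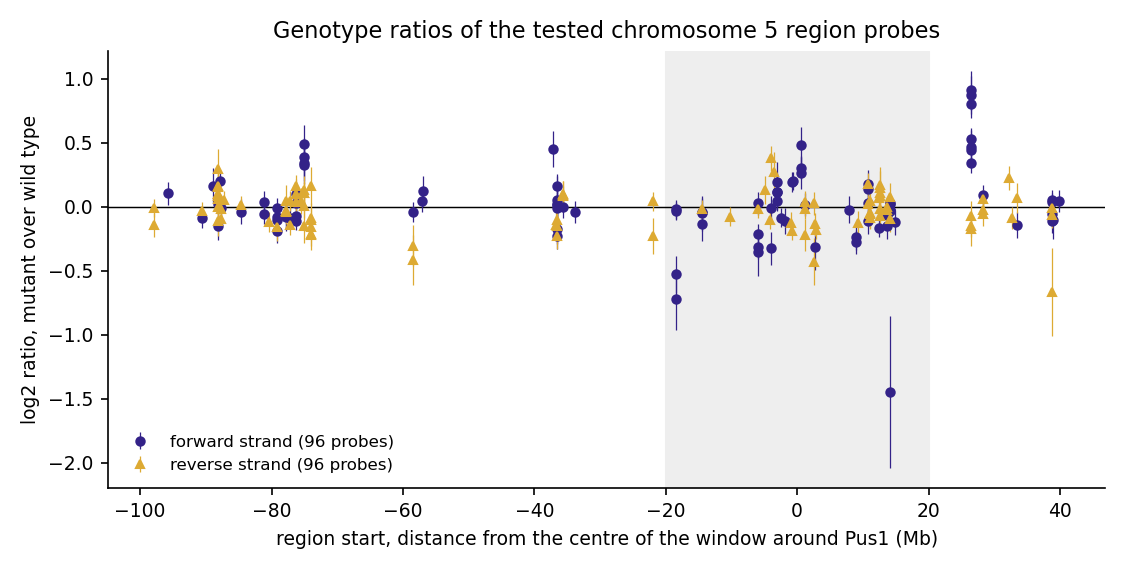
Log2 ratio of mutant over wild type (points, with SE from the limma fit) for the 192 tested region probes against the distance of the region's start from the window's centre in Mb, with the window around Pus1 shaded. The column of forward probes right of the window, from 0.34 to 0.91, is the overlapping cluster, and the lowest point, at -1.45, is a probe high in male wild types alone.

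In the window, 9 tested probes had 1 direction on 4 of 4 arrays, 5 higher and 4 lower in mutants. Both directions together are 11.7% of 77, against 10.2% of all probes (5.89% higher and 4.29% lower). The probe of smallest p was A_30_P01018142, on the reverse strand of chr5:106982442-107045717. Its log2 levels were 7.43, 7.06, 7.35 and 7.38 in the wild types against 7.90, 7.67, 7.44 and 7.73 in the mutants. Every mutant lay above every wild type, by about 0.01 at the closest (wild type 1 and mutant 3), and this was the 1 tested member whose groups did not overlap. The array ratios of 0.47, 0.61, 0.090 and 0.35 gave 0.38 ± 0.099 (SE), with an unadjusted p of 0.0134 (limma adjusted p = 0.727). A_30_P01018142 was the 1 of 8 reverse probes of its region above background in any sample. The overlapping reverse region chr5:106929912-107003737 had a ratio of -0.10 in its 1 tested probe. The 2 tested forward probes of chr5:106982442-107045717 had a mean ratio of -0.17, with array means of -0.063, -0.62, 0.14 and -0.13.

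A pair of probes at chr5:92556322-92558910, forward, had the most negative ratios of these 9. A_30_P01032014 was at 8.16, 8.44, 7.42 and 7.80 in the wild types against 7.47, 7.48, 7.32 and 7.43 in the mutants, a ratio of -0.53 ± 0.15 (SE, limma adjusted p = 0.727). A_30_P01032750 was at 8.70, 9.16, 7.57 and 8.05 against 7.81, 7.61, 7.43 and 7.73, a ratio of -0.72 ± 0.24 (limma adjusted p = 0.727). In each probe the male wild types 1 and 2 were the highest of the 8 samples, while wild type 3 lay within the mutants and wild type 4 above them. With 1 replicate left out the ratios ran from -0.67 to -0.38 and from -1.03 to -0.42. The longer forward region that contains this one, chr5:92548501-92566401, had ratios of -0.020 and -0.036 in its 2 tested probes, so probes of overlapping regions on 1 strand differed.

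At chr5:111538420-111540142, forward, 2 of 3 probes were tested and both had positive ratios. A_30_P01024284 was at 7.96, 8.13, 7.49 and 7.84 in the wild types against 8.35, 8.42, 8.63 and 7.95 in the mutants. Its array ratios were 0.39, 0.29, 1.14 and 0.11, so 1 female pair gave most of the mean of 0.48 ± 0.14 (SE, limma adjusted p = 0.727), which was 0.29 without replicate 3. A_30_P01028152 had 0.37, 0.19, 0.69 and -0.032, a mean of 0.30 ± 0.090 (limma adjusted p = 0.727), and was above background in 4 wild types and 3 mutants.

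Negative values marked chr5:105072936-105074001, forward, where all 3 probes were tested. A_30_P01020007 was at 7.37, 7.74, 7.73 and 7.86 in the wild types against 7.29, 7.27, 7.28 and 7.61 in the mutants, a ratio of -0.31 ± 0.095 (SE, limma adjusted p = 0.727). Wild type 1 and mutant 4 overlapped the other genotype. A_30_P01032390 had a ratio of -0.21 ± 0.081 and was above background in 4 wild types and 2 mutants, so it passed the filter through the group where it is higher. The third, A_30_P01017943, had array ratios of -0.021, -1.42, 0.84 and -0.82 and a mean of -0.36 ± 0.18, with the gap between dye orientations far above that between genotypes. None of the 3 passed (limma adjusted p = 0.727 each). The longer forward region that contains this one, chr5:105063625-105077700, had a ratio of 0.027 in its 1 tested probe.

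The other 4 window probes with 1 direction were smaller in ratio. A_30_P01020964 (chr5:119945358-119962612, forward) had -0.37, -0.44, -0.23 and -0.044 on arrays 1 to 4, with a mean of -0.27. A_30_P01019218 (chr5:107503800-107515575, reverse) had 0.84, 0.087, 0.0009 and 0.16, so its mean of 0.27 was 0.063 without replicate 1. A_30_P01028428 (chr5:121759042-121789992, reverse) had a mean of 0.18 and A_30_P01031112 (chr5:123582742-123588117, reverse) of 0.11. The former was above background in 3 wild types and 4 mutants, so it passed the filter through the group where it is higher. Limma adjusted p of these 4 probes ran from 0.727 to 0.743. The central 20 Mb of the window hold 5 of the 9 probes.

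**Figure D3:**
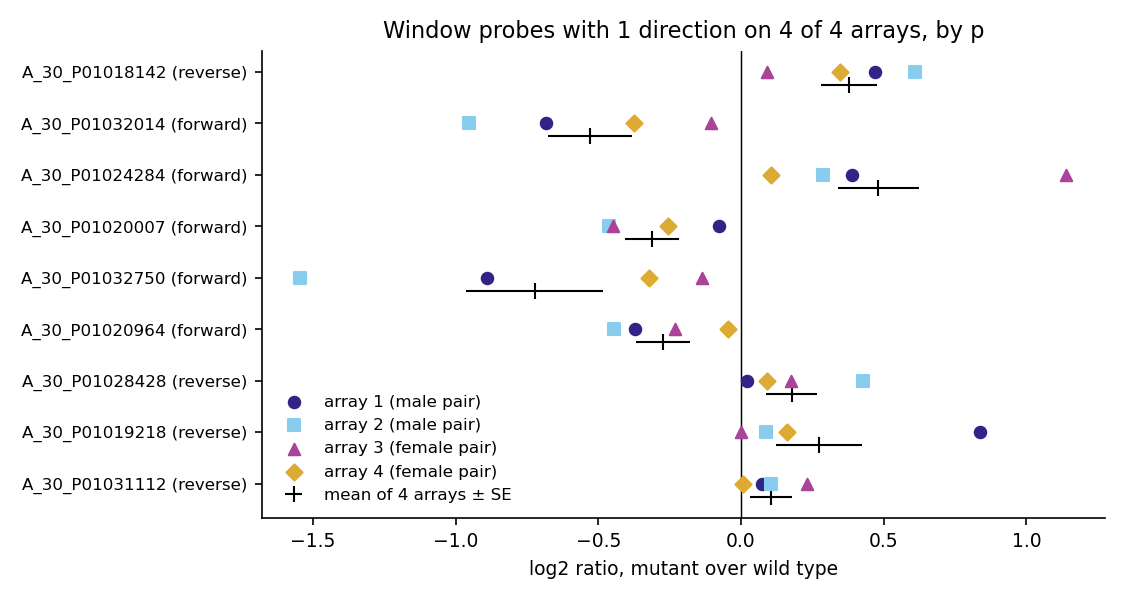
Log2 ratio of mutant over wild type on each of the 4 arrays (symbols) and the mean with its SE (black), for the 9 window probes with 1 direction on 4 of 4 arrays, ordered by p. Each row stays on 1 side of 0, from A_30_P01018142 at the smallest p to A_30_P01019218 and A_30_P01031112 at p of 0.132 and 0.207.

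Outside the window, the 5 probes of smallest p with 1 direction all lie in 1 cluster on the forward strand. It is made of chr5:137392195-137426421 and 2 regions within it, chr5:137395007-137412976 and chr5:137411861-137413010. The 3 regions hold 12 forward probes, of which 7 were tested, 3 were above background in no sample, and the other 2 in 2 and 4 samples. All 7 tested probes had positive mean ratios, from 0.34 to 0.91, or 1.27-fold to 1.88-fold, each with an unadjusted p under 0.05 (limma adjusted p from 0.643 to 0.727). Among them, A_30_P01028054 passed the filter through the mutants alone, the group where it is higher. Over the 7 probes the array means were 0.046, 0.93, 0.54 and 0.98, with a mean of 0.62 ± 0.43 (SD, n = 4 arrays). Pair 1 thus showed almost no difference and the other 3 pairs did. Values were highest on arrays 2 and 4, where the mutant carried Cy3. Summed erythroid markers had log2 differences of mutant minus wild type of -0.82, 0.79, 1.46 and 1.80 in pairs 1 to 4. By gene these were -0.28, 0.17, 2.15 and 1.49 for Hbb-b1 and -0.88, 0.84, 1.41 and 1.82 for Hba-a1. For Alas2 they were -0.042, 0.41, 1.54 and 1.66. All 3 markers were above background in all 8 samples. Their part in the result was not tested.

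A_30_P01026385, of the middle region, had the highest mean ratio of the 192 tested region probes. Its log2 levels were 8.56, 8.18, 8.71 and 8.91 in the wild types against 8.67, 9.53, 9.66 and 10.13 in the mutants. Mutant 1 lay within the wild types, and mutants 2, 3 and 4 above all of them. The array ratios of 0.11, 1.35, 0.95 and 1.22 gave 0.91 ± 0.15 (SE, limma adjusted p = 0.727). A_30_P01020631, of the shortest region, was at 7.55, 7.68, 7.79 and 8.12 in the wild types against 7.76, 8.82, 8.81 and 9.24 in the mutants, a ratio of 0.87 ± 0.15 (limma adjusted p = 0.727). A_30_P01023875, of the longest, had 8.22, 7.83, 8.58 and 8.46 against 8.27, 9.16, 9.16 and 9.72, a ratio of 0.80 ± 0.11 (limma adjusted p = 0.643), the smallest among the members. In each the same mutant, number 1, was the one that overlapped.

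A_30_P01025309 had a ratio of 0.53 ± 0.087 (SE) and A_30_P01028054 of 0.44 ± 0.068. The latter was above background in 3 wild types and 4 mutants, so it passed the filter through the group where it is higher. A_30_P01024562 (0.47) and A_30_P01028102 (0.34) had negative ratios on array 1, -0.27 and -0.025, and positive ratios on the other 3. The SE leaves out a gap between dye orientations, which the model takes up. In each of the 7 forward probes the mean on arrays 2 and 4 lay above that on arrays 1 and 3. For A_30_P01023875 the mean was 1.29 on arrays 2 and 4 and 0.31 on arrays 1 and 3, and without the dye term its SE was 0.22 and its unadjusted p 0.0104. For A_30_P01024562 these means were 0.91 and 0.025, and its unadjusted limma p without the dye term was 0.0723. With 1 replicate left out the mean over the 7 probes ran from 0.50 to 0.82, so no single pair gave it. With median centring of each array, A_30_P01023875 (0.80, limma adjusted p = 0.0405) and A_30_P01026385 (0.91, 0.0384) passed.

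The reverse strand of the same stretch did not share these values. Of its 10 probes 3 were tested, all at chr5:137392195-137426421, with ratios of -0.075 ± 0.12 (SE) for A_30_P01021061, -0.15 ± 0.090 for A_30_P01027596 and -0.17 ± 0.14 for A_30_P01030399. The 5 forward probes tested under that name averaged 0.0002, 0.81, 0.36 and 0.90 on arrays 1 to 4 and the 3 reverse probes -0.027, -0.27, -0.060 and -0.17. Forward exceeded reverse on 4 of 4 arrays, by 0.027, 1.08, 0.42 and 1.07, with a mean of 0.65 ± 0.52 (SD, n = 4 arrays). Of the 18 regions with tested probes on both strands, this was the 1 in which the strands differed in a single direction on 4 of 4 arrays. The region had been singled out for its forward values, so this is a description, and 4 arrays cannot give an exact permutation p under 0.125. Random signs would give a single direction on 4 of 4 arrays in a share of 0.125, so 1 of 18 is not an excess.

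**Figure D4:**
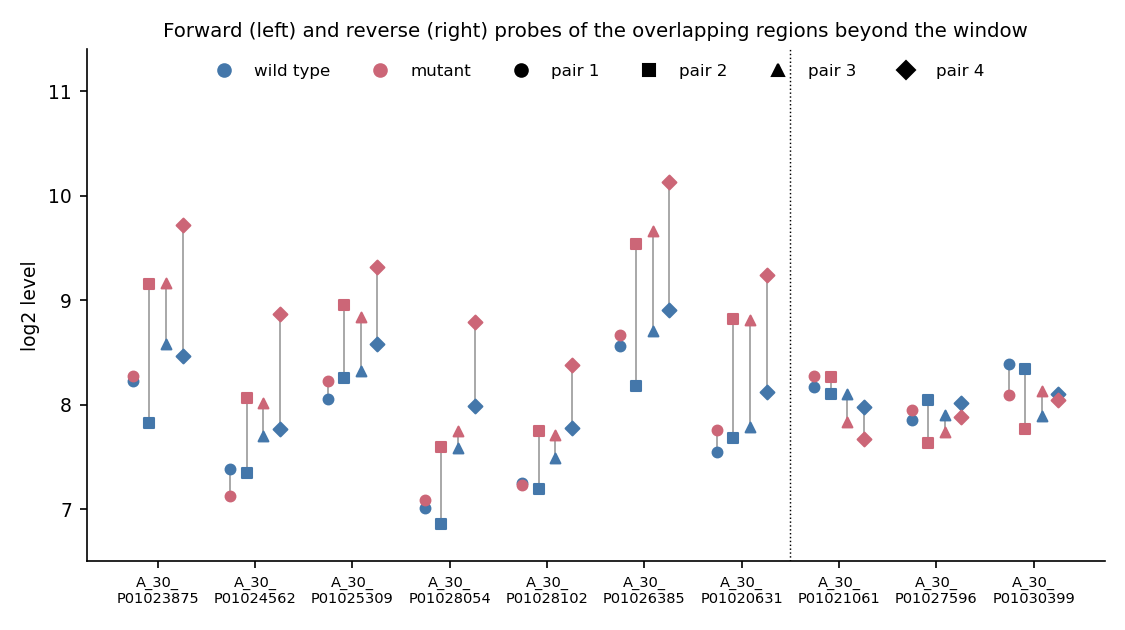
Log2 level in each sample for the 7 tested forward probes (left of the dotted line) and the 3 tested reverse probes (right) of the overlapping regions outside the window, with wild type and mutant of each array joined by a line. The forward probes are higher in mutants 2, 3 and 4 and nearly level in pair 1, and the reverse probes have ratios from -0.17 to -0.075.

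Of the 66 regions with probes on both strands, 18 had a probe that passed the filter on each strand, 11 on the forward strand alone, 21 on the reverse alone and 16 on neither, and a strand that did not pass can still hold probes above background in some samples. The mean ratios of the strands had the same sign in 12 of the 18. Of the 39 combinations of region and strand with at least 2 tested probes, all tested probes had ratios of 1 sign in 25 (64.1%), against 54.0% of 609 on other chromosomes, and the median range between probes was 0.13 in each set. Every probe was tested in 22 of the 276 combinations, and 162 had no tested probe.

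The region with the highest mean level over its tested probes, among those with both strands tested, was chr5:35975265-35982561, with 4 of 4 probes tested on each strand. Its 4 forward probes had ratios of 0.34, 0.32, 0.39 and 0.49, and the brightest of these, A_30_P01024606, was at 11.82, 12.06, 11.17 and 11.73 in the wild types against 12.28, 11.99, 12.15 and 12.33 in the mutants. Wild type 2 overlapped the mutants and the other wild types lay below them, with a ratio of 0.49 ± 0.15 (SE, limma adjusted p = 0.727). The 4 reverse probes had ratios of 0.13, 0.10, 0.11 and 0.0052, with SE of 0.084 to 0.11. The region with most tested probes was chr5:74487385-74497428, 7 of 10 forward and 3 of 10 reverse, and its ratios ran from -0.22 to 0.16 on the forward strand and from -0.23 to -0.10 on the reverse (limma adjusted p from 0.727 to 0.988).

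Averaged over the 4 arrays, spots of the brightest members differed little between genotypes. Brightness compares a probe with itself across samples and not with other probes. A_30_P01023896 (chr5:34696192-34722842, forward) was at 14.91, 14.76, 14.91 and 14.99 in the wild types against 15.11, 14.67, 14.93 and 14.98 in the mutants, a ratio of 0.030 ± 0.073 (SE). The ratios of the other 4 were 0.011 for A_30_P01025092 (chr5:26323150-26357875, reverse), 0.0052 for A_30_P01032382 (chr5:35975265-35982561, reverse), -0.10 for A_30_P01029297 (chr5:31856417-31916414, forward) and -0.019 for A_30_P01027222 (chr5:105063625-105077700, reverse). Their limma adjusted p ran from 0.746 to 0.991. Single arrays could differ more. A_30_P01025092 had 0.44, -0.39, 0.30 and -0.30 on arrays 1 to 4, positive where the mutant carried Cy5 and negative where it carried Cy3. A_30_P01032382 had 0.32, -0.29, -0.0016 and -0.013.

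Male and female pairs differed at 7 members, tested as a genotype by sex term. These are 3.65% of the tested members against 5.91% of all probes, 4 in the window and 3 outside, and in all 7 the male ratio was the lower one, a direction found at 5.58% of all probes, with the opposite at 0.326%. The most different was A_30_P01023736 (chr5:125205454-125209470, forward), at 10.24, 11.10, 7.16 and 7.39 in the wild types against 8.0, 7.87, 7.33 and 6.91 in the mutants. Male wild types stood far above the other 6 samples. The probe was above background in 4 wild types and 3 mutants, so it passed the filter through the group where it is higher. It was the 1 of 3 probes of its region above background in any sample. The mean ratio was -2.74 in males and -0.16 in females, 2.58 apart (sex term, limma adjusted p = 3.93e-05). The 5 tested forward probes of chr5:125190100-125209625, which contains that region, had ratios from -0.036 to 0.032.

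A_30_P01026350 (chr5:149751979-149808240, reverse) had the same profile, at 9.11, 10.17, 7.78 and 8.22 in the wild types against 8.40, 8.12, 8.05 and 8.03 in the mutants. Its male ratio was -1.38 and its female ratio 0.042 (limma adjusted p of the sex term 0.00212). For A_30_P01032750, described above, they were -1.22 and -0.23 (limma adjusted p 0.00639). A_30_P01020464 (chr5:52461266-52541416, reverse) had -0.82 and -0.017 (limma adjusted p 0.0146) and A_30_P01017943 -0.72 and 0.0096 (limma adjusted p 0.0261), and in these the array ratios alternated with the dye, at 0.21, -1.84, 0.90 and -0.93 for the former. The sex term had 1 residual degree of freedom, and with no dye term it called 0 members.

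Markers of other cells also differed between these samples. The log2 of the summed level of the 2 neuronal markers, Snap25 and Rbfox3, was 12.79 to 16.27 in wild types and 12.57 to 14.38 in mutants. Snap25 alone was at 14.98 and 16.27 in wild types 1 and 2, 14.12 and 14.37 in mutants 1 and 2, and 12.55 to 13.24 in the 4 females, while Rbfox3, a neuronal nuclear protein, was above background in 2 of 8 samples. The neuronal sum, nearly all of it Snap25, differed between mutant and wild type by -0.85, -1.89, 0.47 and -0.37 on pairs 1 to 4. Rbfox3 alone differed by -0.040, -0.042, -0.39 and -0.035, and A_30_P01023736 by -2.24, -3.23, 0.16 and -0.48. The part of these markers in the result was not tested. The erythroid sum ran from 14.66 to 16.33 in wild types and from 14.61 to 18.13 in mutants, and the adipocyte sum from 13.67 to 14.64 and from 14.04 to 14.83. Of the adipocyte markers, Cfd and Fabp4 were above background in all 8 samples, Adipoq in 6 and Plin1 in 2.

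**Figure D5:**
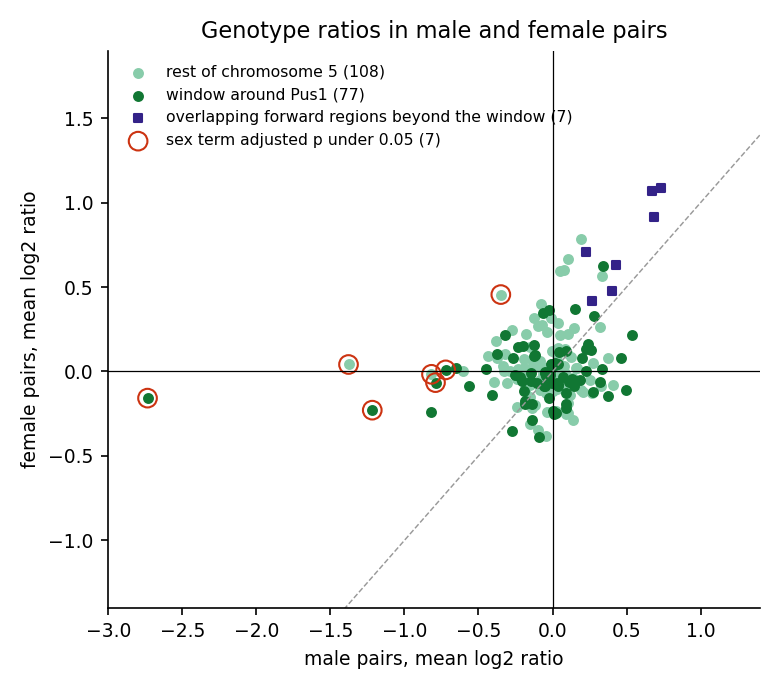
Mean log2 ratio of mutant over wild type in the 2 female pairs against the 2 male pairs for the 192 tested members, with the line of equal effect dashed. The overlapping forward regions lie above 0 in both sexes, and the 7 ringed probes, called by the sex term, lie at negative male ratios, from -2.74 to -0.35.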

How the data were processed

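The deposited scanner files hold raw median intensity and local background per channel on a linear scale, made with Feature Extraction 10.7.3.1, per the file headers, and a processed intensity from the same program. Flags of 0 or 1 and build mm9 are per the file headers. Values in the authors' deposited table are log2, with each probe's median at 0, as the values themselves show. Its column medians lie between -0.062 and 0.019, its ratios correlate at 0.991 to 0.998 with the scanner's, and its other steps are not stated in these sources. Raw intensity was corrected by normexp (offset 50) and loess in limma 3.58.1 (R 4.3.3), with control and outlier spots at weight 0, and levels are after loess and Aquantile. Probes with at least 50% of spots well above background in all 4 samples of a genotype were kept (21152, less 6 for outlier flags). Ratios of mutant over wild type were fitted with a dye term by lmFit and eBayes on 2 residual degrees of freedom (prior 2.82), 2-sided, Benjamini-Hochberg adjusted over 21146 probes. The sex term was fitted likewise. "At least" folds compare the brighter genotype with a floor, per dim sample the higher of its own level and the lowest level among probes well above background. The array pairs the samples through the individual number in the labels, and deviations from group means correlated at 0.39, 0.28, 0.059 and 0.53 in pairs 1 to 4. The 4 arrays share 1 slide. The number of arrays limits the precision, as does signal over background.

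Named probes were those with an adjusted p under 0.05, the 10 (window) and 5 (rest) of smallest p with 1 direction on 4 arrays, the 5 brightest, the brightest region with both strands tested, the region with most tested probes, members above background in 1 genotype alone, and up to 5 called by the sex term. The window had 9 of the 10. Others were named after their values were seen. Members and lists were chosen with earlier results of these data known. The fit was tested on simulated data.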

Additional observations from a re-analysis of the deposited data

Results flagged for a closer look

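In 80 groups of 4 samples, from 40 named probes, 4 had a sample whose gap to the others exceeded Dixon's 95% limit, where chance flags about 1 in 20. Mutant 4 was at 7.61 for A_30_P01020007, against 7.27 to 7.29 in the other mutants, and at 7.35 for A_30_P01028428, against 7.23 to 7.24. Wild type 2 was at 14.69 for A_30_P01032382, against 14.05 to 14.12, and mutant 3 at 8.98 for A_30_P01032180, against 8.25 to 8.35.

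At 7 probes the genotype ratio differed between the sexes by the sex term of the limma model. The female minus male difference was 2.58 for A_30_P01023736, 1.42 for A_30_P01026350, 0.99 for A_30_P01032750, 0.80 for A_30_P01020357, 0.80 for A_30_P01020464, 0.73 for A_30_P01017943 and 0.72 for A_30_P01019302.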

How the results depend on the processing

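The genotype test called 0 of all probes with either filter, with no filter, without the dye term, without background subtraction, from the scanner's ratio, from the authors' deposited table and with any 1 replicate left out. With no replicate block it called 3 of all probes (0 members), in female pairs alone 7 (0 members), in male pairs alone 559 (3 members, 2 in the window) and with median centring 29 (2 members). The sex term called 0 members with no dye term. The median absolute ratio on the rest of the chromosome was 0.142 from the scanner's ratio, 0.152 from the authors' deposited table and 0.0883 to 0.133 with 1 replicate left out, and that of the window was 0.182 in its central 20 Mb. Window minus rest was 0.028 with median centring (exact permutation p = 0.5), -0.018 with no filter and 0.00097 in the central 20 Mb. Limits of signal over background left 775 members untested. The forward cluster was set apart after seeing the data. Causes were not tested.

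In female pairs alone the sign turned for A_30_P01025092 (-0.0021), A_30_P01032382 (-0.0073), A_30_P01032180 (0.25), A_30_P01032580 (-0.020), A_30_P01026350 (0.042) and A_30_P01017943 (0.0096), and in male pairs alone for A_30_P01020357 (-0.35) and A_30_P01031327 (-0.18). A_30_P01027222 turned to 0.0098 from the scanner's ratio, 0.011 with median centring and 0.038 in the authors' deposited table. A_30_P01032180 turned to 0.087, 0.0098 and 0.082 under the same settings and to 0.013 without background subtraction. With 1 replicate left out, signs turned for A_30_P01023896 (-0.016 to 0.076), A_30_P01025092 (-0.024 to 0.047), A_30_P01032382 (-0.076 to 0.086), A_30_P01027222 (-0.044 to 0.0053), A_30_P01020357 (-0.22 to 0.33), A_30_P01031327 (-0.21 to 0.25), A_30_P01032180 (-0.24 to 0.22), A_30_P01032580 (-0.033 to 0.051) and A_30_P01019459 (-0.22 to 0.015). In male pairs alone A_30_P01032750 (-1.22), A_30_P01023736 (-2.74) and A_30_P01026350 (-1.38) passed, with limma adjusted p of 0.0223, 0.0073 and 0.0458.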

Other observations

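Along the chromosome, the 10 Mb bin from 120 Mb held the most members, 150, and that from 30 Mb the most tested ones, 38. Between 40 and 50 Mb and between 60 and 70 Mb, 0 of 8 and 0 of 5 members were tested. The median absolute log2 ratio was 0.20 between 110 and 120 Mb (19 tested), 0.074 between 120 and 130 Mb (32 tested) and 0.26 between 130 and 140 Mb (14 tested, the forward cluster among them). Between 90 and 100 Mb all 8 tested probes had negative ratios, with a median size of 0.048. Of all tested members 106 of 192 were negative, of tested region probes on other chromosomes 1503 of 2739, and of all tested probes 10339 of 21146. The 8 lie in the overlapping forward regions chr5:92548501-92566401 and chr5:92556322-92558910 and on both strands of chr5:96591892-96606467, so they are not independent.

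At the reverse strand of chr5:37051650-37110575, all 5 probes were tested and had negative ratios, -0.10, -0.21, -0.086, -0.22 and -0.16, and A_30_P01029513 (-0.22 ± 0.081 SE, limma adjusted p = 0.727) was lower on 4 of 4 arrays. The overlapping reverse region chr5:36969767-37087176 had a ratio of 0.16 in its 1 tested probe. At chr5:73771801-73772662, forward, A_30_P01018547 was above background in 1 of 4 wild types and 4 of 4 mutants, at 7.76, 6.70, 6.74 and 6.71 in the wild types against 7.76, 7.36, 7.49 and 7.10 in the mutants. Its ratio was 0.45 ± 0.14 (SE, limma adjusted p = 0.727), and it passed the filter through the group where it is higher. At the forward strand of chr5:125190100-125209625, A_30_P01024841 was at 12.22 to 12.50 in the 4 males. It was at 13.14 to 13.69 in the 4 females, without overlap. This difference was chosen after seeing the values and was not tested, nor was it set against the share of all probes with such a gap. Males and females lay on different arrays, so in these levels a difference between sexes cannot be told apart from one between arrays.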
